A study of Mus musculus with 8 samples.

Results

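The members described here are the matrix metalloproteases (MMPs), their tissue inhibitors (TIMPs) and the related ADAM and ADAMTS proteases. They were taken as every non-control probe of a 1-colour Agilent mouse array whose gene name, in the file of the fibroblast array, begins with Mmp, Timp, Adamts or Adam followed by a digit. The rule found 123 probes for 70 genes, of 41174 probes and 27962 gene names on the array. They comprise 21 Mmp genes with 28 probes, 4 Timp genes with 6 probes, 17 Adamts genes with 39 probes and 28 Adam genes with 50 probes. The rule uses gene names and no measured value. One further probe of the ADAM family carried a clone name on the array and was not found by the rule.

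RNA of 4 mouse cell populations was hybridised, each to 1 array. ES is an embryonic stem cell culture derived from blastocysts of 129/Ola mice, and MEF is a culture of mouse embryonic fibroblasts. PM2i-iPSC and OM2i-iPSC are induced pluripotent preparations, obtained from MEF exposed to combinations that held purmorphamine or an oxysterol, respectively, and then kept in 2i/LIF. Purmorphamine activates the Hedgehog transducer Smoothened, as certain oxysterols do, and 2i/LIF is a pluripotent stem cell medium with a MEK inhibitor, a GSK3 inhibitor and the cytokine LIF. The title of the series asks whether small molecules can reprogram somatic cells. The labels give neither the other components of the combinations, nor the strain of the fibroblasts, nor whether the MEF array holds the cells from which the iPSC preparations were made. With 1 array per group there was no replicate error and no test, and a difference compares 2 arrays, not 2 conditions.

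MMPs are zinc-dependent endopeptidases that are made as inactive precursors and cut collagens, proteoglycans and other proteins outside the cell. TIMPs bind their active site and block it, and some also inhibit ADAM and ADAMTS enzymes. ADAMs are mostly anchored in the membrane, where several shed the outer domains of growth factors and receptors, while many others are known from testis and sperm. ADAMTS enzymes are secreted, bind the matrix through thrombospondin repeats and cut proteoglycans, procollagens or von Willebrand factor. Cultured fibroblasts are a classical source of collagenase, stromelysin and TIMPs.

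The collagenase and stromelysin genes lie side by side on mouse chromosome 9, and their promoters are a textbook case of AP-1 control. The 100 bases upstream of the RefSeq start site of 4 of them are shown because Mmp13, Mmp3 and Mmp10 carried the widest differences of the data set's MMPs, whereas Mmp1a, between them, differed the other way. They were taken from RefSeq on GRCm38.p6, all from the plus strand, and run 5′ to 3′. Capitals mark the AP-1 motif TGAGTCA or its reverse complement TGACTCA. The windows are chr9:7272414-7272513 for Mmp13, chr9:7445722-7445821 for Mmp3, chr9:7502242-7502341 for Mmp10 and chr9:7464041-7464140 for Mmp1a.
Mmp13: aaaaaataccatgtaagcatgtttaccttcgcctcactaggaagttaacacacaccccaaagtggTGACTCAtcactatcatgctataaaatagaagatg
Mmp3: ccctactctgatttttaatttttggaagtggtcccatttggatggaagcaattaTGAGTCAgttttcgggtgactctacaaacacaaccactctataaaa
Mmp10: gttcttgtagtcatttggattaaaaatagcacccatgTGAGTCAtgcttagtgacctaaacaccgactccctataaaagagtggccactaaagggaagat
Mmp1a: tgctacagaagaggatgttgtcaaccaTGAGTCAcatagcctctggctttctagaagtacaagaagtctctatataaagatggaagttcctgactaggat

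The motif begins 35 bases before the start in Mmp13, 46 in Mmp3, 63 in Mmp10 and 73 in Mmp1a. Mmp1a, which was higher in ES, and the 3 that were lower all have it. The part of the motif in these differences was not tested. In the wider RefSeq window, 250 bases before to 50 after the start, both strands of 40 members could be searched. The AP-1 motif was found in 6 of 16 Mmp genes (the others being Mmp12 and Mmp7), in 3 of 12 Adam genes (Adam19, Adam1b and Adam29), in 0 of 8 Adamts genes and in 0 of 4 Timp genes. These 6 Mmp genes all lie in the run of neighbouring MMP genes on chromosome 9. The AP-1 motif occurs in 5.95% of the 27025 genes of the same table, or in 5.2% of its 32851 windows. The TATA motif TATAAA or TTTATA was found in 9 of the 16 Mmp genes, 1 of 12 Adam genes, 1 of 8 Adamts genes and 0 of 4 Timp genes, against 15.7% of all genes and 13.6% of all windows. Apart from Mmp21, these 9 Mmp genes lie in the same run. The GC box GGGCGG or CCGCCC was found in 7 of 8 Adamts genes, 3 of 4 Timp genes, 7 of 16 Mmp genes and 5 of 12 Adam genes, against 38.2% of all genes and 35.7% of all windows. None of these 3 motifs contains another, and a match describes letters, not binding.

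Levels below are on a log2 scale on which 0 is the 75th percentile of the processed signals of an array. A gene is represented by its brightest probe, and levels of different genes are not set against each other. A signal that the scanner software did not mark as well above background is called not well above background; a fold against it was computed from its own signal or from the lowest signal on the array that was, whichever was higher, and is written as at least. That floor was at -6.85 on the MEF array, -5.13 on ES, -4.59 on PM2i-iPSC and -4.60 on OM2i-iPSC, so low levels could be followed further down in MEF than elsewhere. Spots of 1 probe on 1 array had a mean SD of 0.21, or 0.29 for a difference between 2 arrays, which covers the array surface and nothing else. ES and PM2i-iPSC shared a slide, OM2i-iPSC was on another slide, and MEF was on a slide of its own, was scanned at another time and was extracted with an older software version. Slide and group therefore cannot be told apart in any comparison with MEF or OM2i-iPSC.

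The labels were set against cell type markers. All 8 fibroblast markers lay at least 2-fold below MEF in ES, and their summed level was 7.22 in MEF, 2.74 in ES, 2.73 in PM2i-iPSC and 2.56 in OM2i-iPSC. All 8 pluripotency markers lay at least 2-fold above it, with summed levels of 0.47 in MEF and of 6.97, 6.80 and 6.61 in ES, PM2i-iPSC and OM2i-iPSC. Every comparison with MEF below moves with these marker sums, and their part in the results was not tested. Fewer cells of a type and less RNA per cell cannot be told apart in such bulk RNA.

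Of the 70 genes, 65 were well above background on at least 1 array and 40 on all 4. Adam4, Adam7, Adam22, Mmp20 and Mmp28 were so on no array. The number well above background was 60 on MEF, 46 on ES, 47 on PM2i-iPSC and 49 on OM2i-iPSC. Those well above background on MEF alone were Mmp8, Mmp12, Mmp16, Mmp19, Mmp25, Adamts1, Adamts6, Adam10, Adam12, Adam25 and Adam29. Of these, Mmp19, Mmp25, Adam25 and Adam29 lay on MEF below the floors of the other arrays and have no fold. Adamts13 was so on ES alone, Mmp15 on PM2i-iPSC alone, and Adam6 and Adamts19 on OM2i-iPSC alone.

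Timp1, Timp2 and Timp3 were much lower in all pluripotent populations than in fibroblasts, and Timp4 was not. For scale, 24.2% of the 20396 genes with a fold between ES and MEF lay at least 2-fold below MEF and 36.4% at least 2-fold above it, with a median of 0.28 over these genes. Timp2, which inhibits MMPs and also takes part in the activation of pro-MMP2 at the cell surface (probe at chr11:118410877-118410936 on mm7), had levels of 4.28 in MEF, -1.70 in ES, -2.35 in PM2i-iPSC and -1.08 in OM2i-iPSC. It was thus below MEF 63.2-fold in ES, 98.9-fold in PM2i-iPSC and 41.0-fold in OM2i-iPSC, with MEF far above the other 3 arrays. Timp3, the matrix-bound TIMP that also inhibits ADAM17 and ADAMTS aggrecanases (chr10:85907162-85907221), was saturated in MEF at 5.20 and stood at 0.09, 0.10 and 0.62 in ES, PM2i-iPSC and OM2i-iPSC. Its levels in the 3 were at least 34.5-fold, 34.3-fold and 24.0-fold below MEF.

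Timp1, the inducible TIMP of connective tissue, on the X chromosome (chrX:19307699-19307758), had 4.33 in MEF, 1.75 in ES, 1.49 in PM2i-iPSC and 0.55 in OM2i-iPSC. The folds below MEF were 5.98, 7.15 and 13.7, respectively. All 3 of its probes lay lower in each pluripotent population than in MEF, at 3.41 and 3.44 in MEF for the other 2 against 0.26 and 1.39 in ES. Timp4, a TIMP with restricted tissue expression (chr6:115271716-115271775), had 1.35 in MEF, 2.43 in ES, 1.90 in PM2i-iPSC and 3.07 in OM2i-iPSC. It exceeded the MEF level 2.12-fold in ES, 3.31-fold in OM2i-iPSC and 1.47-fold in PM2i-iPSC. Each of Timp2, Timp3 and Timp4 has a single probe.

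Most MMPs with a fold were also lower in ES than in MEF. Of 16 Mmp genes that had a fold, 12 lay 2-fold or more below MEF, against 24.2% of all genes. Mmp1a and Mmp21 lay 2-fold or more above MEF, against 36.4% of all genes. Mmp11 and Mmp17 lay between, and the Mmp median was -2.62. A gene detected in MEF alone enters only by being higher there. With both arrays well above background, 8 of 12 Mmp genes were lower and 2 higher, against 22.3% and 34.4% of all genes. Among the 3 collagenases 2 were lower, both gelatinases were lower, 3 of 4 stromelysins and matrilysin were lower, and 3 of 4 membrane-type MMPs with a fold were lower.

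Mmp13, the main rodent interstitial collagenase (chr9:7280046-7280105), had the widest difference from MEF of all members with a fold. It stood at 3.65 in MEF, -4.46 in ES and -3.80 in PM2i-iPSC, and was not well above background in OM2i-iPSC. Its level was 277-fold below MEF in ES, 175-fold in PM2i-iPSC and at least 306-fold in OM2i-iPSC. Mmp8, the neutrophil collagenase, was at -2.38 in MEF and not well above background in the other 3, at least 5.79-fold lower in ES. Mmp1a, the rodent counterpart of interstitial collagenase, went the other way, with -2.37 in MEF, -0.91 in ES, -0.99 in PM2i-iPSC and 0.00 in OM2i-iPSC, or 2.74-fold, 2.60-fold and 5.16-fold above MEF.

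Stromelysins cut proteoglycans, laminin and fibronectin and activate other MMPs. Mmp3, stromelysin 1 (chr9:7453874-7453933), had 4.98 in MEF against -1.45 in ES, -2.19 in PM2i-iPSC and -2.05 in OM2i-iPSC, so that it was 86.0-fold, 144-fold and 130-fold lower. Mmp10, stromelysin 2 (chr9:7508134-7508193), had 3.74 in MEF, -1.53 in ES, -3.06 in PM2i-iPSC and -1.67 in OM2i-iPSC. Its folds below MEF were 38.7, 111 and 42.5. Mmp11, stromelysin 3, which is processed inside the cell by furin, lay within 2-fold of MEF in all 3, with levels from 2.82 to 3.63 over the 4 arrays. Mmp7, matrilysin, was at -3.67 in MEF, not well above background in ES, and at -2.86 and -3.53 in PM2i-iPSC and OM2i-iPSC. It was thus at least 2.76-fold lower in ES but within 2-fold of MEF in both iPSC preparations.

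The gelatinases degrade denatured collagen and basement membrane collagen. Mmp9, gelatinase B (chr2:164695457-164695516), had 0.87 in MEF, -3.59 in ES, -4.39 in PM2i-iPSC and -2.37 in OM2i-iPSC, or 22.0-fold, 38.3-fold and 9.43-fold below MEF. Its second probe was at -0.45 in MEF and not well above background on the others. Mmp2, gelatinase A, had 1.04 in MEF, -1.66 in ES, -2.04 in PM2i-iPSC and -1.63 in OM2i-iPSC, or 6.49-fold, 8.48-fold and 6.36-fold lower. Mmp8, Mmp9 and Mmp12, the macrophage metalloelastase, are also made by myeloid cells. Summed macrophage markers stood at 1.67 in MEF, 1.54 in ES, 0.72 in PM2i-iPSC and 0.91 in OM2i-iPSC, with 6 of 7 markers well above background in MEF, 5 in ES and 4 in each iPSC preparation. Of 6 macrophage markers with a fold between ES and MEF, 3 were at least 2-fold lower in ES and 2 higher. Adgre1 differed most, at 0.59 in MEF and not well above background elsewhere. Ptprc and Cd68 were higher in ES than in MEF, at least 7.02-fold and 2.37-fold. The part of such cells was not tested.

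**Figure D1:**
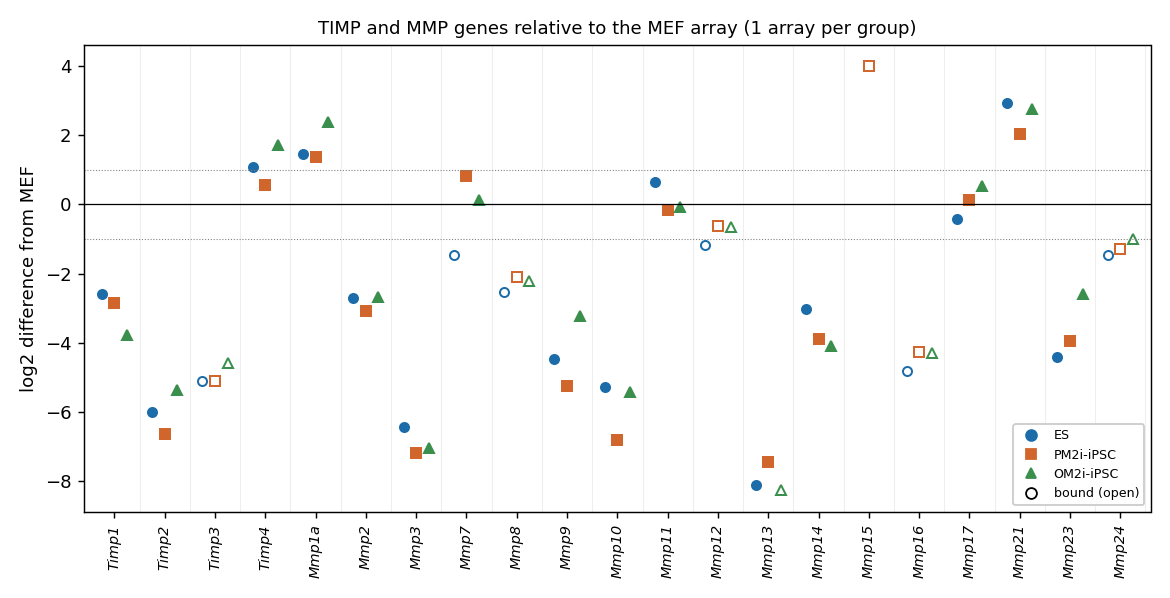
Log2 difference from the MEF array for each TIMP and MMP gene with a fold, in ES (circles), PM2i-iPSC (squares) and OM2i-iPSC (triangles), with 1 array per group and no error bars. Open symbols are bounds and dotted lines mark 2-fold. Mmp13, Mmp3, Mmp10 and Timp2 lie lowest in all 3, while Timp4, Mmp1a and Mmp21 lie above 0.

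Membrane-type MMPs act at the cell surface. Mmp14, which cuts fibrillar collagen and activates pro-MMP2 (chr14:49308207-49308266), had 4.84 in MEF, 1.81 in ES, 0.95 in PM2i-iPSC and 0.76 in OM2i-iPSC, or 8.17-fold, 14.9-fold and 16.9-fold lower. Its second probe pointed the same way, at 0.00 in MEF against -3.97, -2.91 and -3.17. Mmp24 was saturated in MEF at 5.24 and at least 2.73-fold, 2.45-fold and 2.00-fold lower in the 3. Its other probe, at -3.14 in MEF, stood at -2.78, -1.22 and 1.34, so the 2 probes went opposite ways in both iPSC preparations. The 2 probes of Mmp17 also differed. The one that was brighter on average lay within 2-fold of MEF in all 3, whereas the other, at 0.10 in MEF, stood at -1.66, -2.47 and -2.70. Mmp15 was well above background in PM2i-iPSC alone, at -2.85, which is at least 16.0-fold above MEF and at least 4.86-fold above ES.

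Mmp16 shows how much the choice of probe can matter. Its brighter probe (chr4:18044344-18044403) was at -0.32 in MEF and not well above background in the other 3, or at least 28.2-fold lower in ES. The other probe, which carries the RefSeq accession, covers sequence from 18020571 to 18037589 on the same chromosome and so joins separate exons. Its 60 bases are shown in lower case because its reading opposes the first.
Mmp16: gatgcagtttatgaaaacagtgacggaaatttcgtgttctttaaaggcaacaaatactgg
This probe was at -5.53 in MEF and -3.88 in OM2i-iPSC, and not well above background in ES and PM2i-iPSC. OM2i-iPSC was thus at least 19.5-fold below MEF by the first probe and 1.64 above it on the log2 scale by this one.

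Among the remaining MMPs, Mmp23, a membrane-bound MMP without the usual activation switch (chr4:154640810-154640869), had 2.05 in MEF, -2.37 in ES, -1.89 in PM2i-iPSC and -0.53 in OM2i-iPSC. The folds below MEF were 21.4, 15.3 and 5.97. Mmp21, an MMP known for left-right patterning (chr7:130079424-130079483), had -4.43 in MEF, -1.50 in ES, -2.41 in PM2i-iPSC and -1.68 in OM2i-iPSC, or 7.64-fold, 4.07-fold and 6.73-fold higher.

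**Figure D2:**
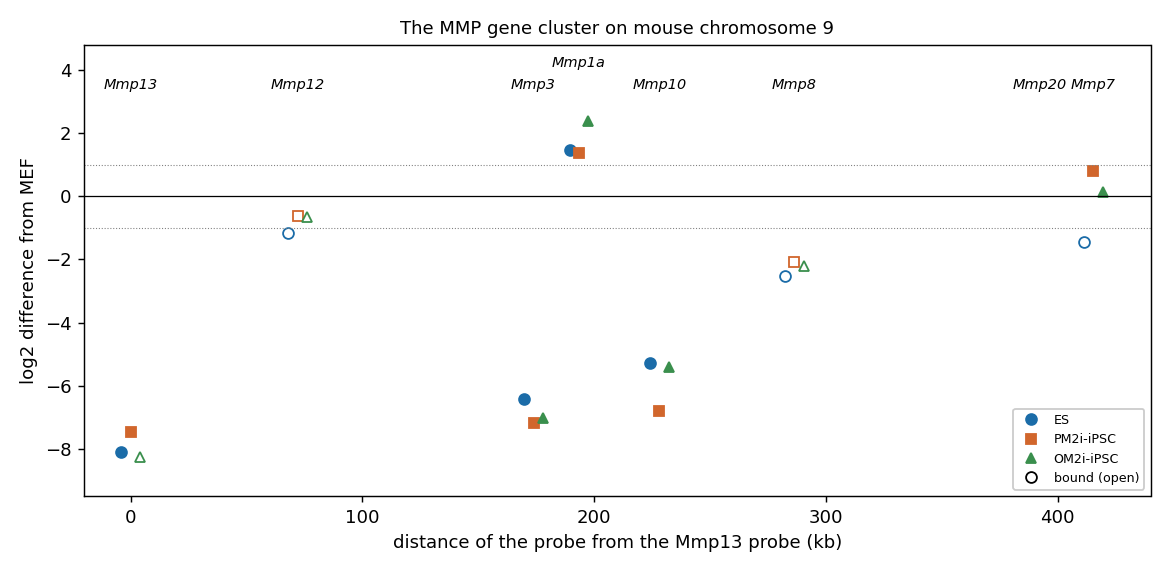
Log2 difference from MEF (y axis) of the chromosome 9 MMP genes against the distance of each probe from the Mmp13 probe in kb (x axis), for ES (circles), PM2i-iPSC (squares) and OM2i-iPSC (triangles), drawn slightly side by side; open symbols are bounds. Mmp13, Mmp3 and Mmp10 lie below -5, while Mmp1a, between Mmp3 and Mmp10, lies above 1, and Mmp20 has no value.

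Neighbours in this cluster did not share one direction. Its 8 probes span 415 kb on mm7 in the order Mmp13, Mmp12, Mmp3, Mmp1a, Mmp10, Mmp8, Mmp20 and Mmp7. The Mmp1a probe lies 193 kb from that of Mmp13, between Mmp3 at 174 kb and Mmp10 at 228 kb. Its difference between ES and MEF was 1.46, against -6.43 and -5.27 for these neighbours. Mmp12 was at least 2.26-fold lower in ES, and in the iPSC preparations its bound was under 2-fold.

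ADAMTS genes were split. Of 14 with a fold between ES and MEF, 6 lay 2-fold or more below MEF and 3 above it, against 24.2% and 36.4% of all genes. Their median was -0.83. With the mean of all probes of a gene in place of its brightest, that median turned to 0.87. With both arrays well above background the counts were 2 lower and 2 higher of 9, against 22.3% and 34.4% of all genes. Among the 7 proteoglycan-cleaving members 3 were lower and 2 higher, so the enzymes of one kind of substrate did not share a direction.

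Adamts1, which cuts versican and aggrecan (chr16:85790724-85790783), was at 0.78 in MEF and not well above background in ES, PM2i-iPSC and OM2i-iPSC, at least 51.3-fold, 41.4-fold and 41.8-fold lower. Its second probe was at -1.60 in MEF and likewise not well above background elsewhere. Adamts6 (chr13:101633753-101633812) showed the same pattern, with -1.09 in MEF and at least 16.5-fold, 11.3-fold and 11.4-fold lower values. Adamts5, the main mouse aggrecanase, whose probe lies 67.6 kb from that of Adamts1, had -0.25 in MEF, -1.70 in ES, -1.62 in PM2i-iPSC and 0.09 in OM2i-iPSC. It was 2.73-fold and 2.60-fold lower in ES and PM2i-iPSC, but 1.26-fold higher in OM2i-iPSC. Its second probe, at -3.28 in MEF, was not well above background in any of the 3. Adamts4, another aggrecanase, was 2.38-fold lower in ES and within 2-fold in both iPSC preparations.

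Adamts8 and Adamts15, neighbours on chromosome 9 with probes 61.7 kb apart, were higher in all 3 pluripotent populations. Adamts8 (chr9:30862134-30862193) had -3.49 in MEF, 0.38 in ES, 0.93 in PM2i-iPSC and 0.58 in OM2i-iPSC, or 14.6-fold, 21.4-fold and 16.8-fold higher. A second probe gave -3.04 in MEF and 0.26, 0.90 and 0.01, while the remaining probe, to another transcript record, was at -4.32 in MEF and not well above background elsewhere. Adamts15 (chr9:30800473-30800532) had -3.03 in MEF, -0.19 in ES, 1.05 in PM2i-iPSC and 1.06 in OM2i-iPSC, or 7.14-fold, 16.9-fold and 17.1-fold higher.

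Adamts13, the protease of von Willebrand factor (chr2:27013976-27014035), was at -3.22 in ES and not well above background on the other arrays, at least 12.4-fold above MEF, at least 2.58-fold above PM2i-iPSC and at least 2.61-fold above OM2i-iPSC. The procollagen N-propeptidase Adamts3 was at -0.95 in PM2i-iPSC on its brightest probe, against -3.87 in MEF and no reading well above background in ES and OM2i-iPSC. Neither of its other probes was well above background in PM2i-iPSC, and one of them read -3.07 in ES and not well above background in MEF, so the ES comparison of this gene has no single direction. Adamts2, the other procollagen N-propeptidase measured, had -1.36 in MEF, -2.18 in ES and -3.38 in OM2i-iPSC and was not well above background in PM2i-iPSC.

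ADAM genes lay on both sides of the MEF level. Of 22 with a fold between ES and MEF, 7 lay 2-fold or more above MEF (31.8%) and 6 below it (27.3%). These shares were near those of all genes, 36.4% and 24.2%, and the family median was -0.06. Among the 9 broadly expressed proteolytic ADAMs 5 were lower (55.6%) and 1 higher (11.1%), with a median of -1.18. Of these 5, Adam10 and Adam12 were well above background in MEF alone and could enter only as lower. Among the 11 other ADAMs, most of them known from testis, 1 was lower (9.09%) and 5 were higher (45.5%), with a median of 0.40. Adam21, among these 5, was not well above background in MEF and could enter only as higher.

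Adam12, an ADAM of mesenchyme and muscle (chr7:130289038-130289097), was at -0.98 in MEF and not well above background elsewhere, at least 17.7-fold, 12.2-fold and 12.3-fold lower in ES, PM2i-iPSC and OM2i-iPSC. The other Adam12 probe was not well above background on any array, MEF included. Adam9 (chr8:23703096-23703155) had 2.90 in MEF, 0.24 in ES, 0.62 in PM2i-iPSC and -0.22 in OM2i-iPSC, or 6.29-fold, 4.83-fold and 8.68-fold lower. The 2 best known sheddases were also lower in ES. Adam10, which cuts Notch and cadherins, was well above background in MEF alone, at -2.92, and at least 4.63-fold lower in ES. Adam17, which releases TNF and EGF receptor ligands, had 2.14 in MEF, 0.96 in ES, 1.14 in PM2i-iPSC and 0.68 in OM2i-iPSC, or 2.27-fold, 2.00-fold and 2.75-fold lower. Its second probe also read lower in all 3, at 1.72 in MEF against 0.96, 1.23 and 0.67, but passed 2-fold in OM2i-iPSC alone. Adam19 lay below MEF 3.17-fold in ES, 2.82-fold in PM2i-iPSC and 1.54-fold in OM2i-iPSC on its brightest probe. Its dimmer probes lay further below MEF in all 3, with log2 differences of -2.08 and -2.35 in OM2i-iPSC. Adam8 and the brightest probe of Adam15 lay within 1.16-fold of MEF in all 3, but the second probe of Adam15, at -3.73 in MEF, was not well above background in ES and PM2i-iPSC.

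Adam28, a lymphocyte and epithelial ADAM (chr14:63485693-63487808), was the 1 member of that group that was higher in ES. It had -3.30 in MEF, -0.81 in ES, -0.13 in PM2i-iPSC and 0.94 in OM2i-iPSC, or 5.62-fold, 8.99-fold and 18.8-fold higher, and a second probe that was not well above background in MEF read -4.07 in ES and -0.77 in OM2i-iPSC. Adam33 lay 1.74-fold higher in ES, 3.45-fold higher in PM2i-iPSC and 6.16-fold higher in OM2i-iPSC on its brightest probe. Another Adam33 probe lay within 2-fold of MEF in all 3, at -3.02 in MEF against -3.13, -3.63 and -2.49.

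Of the ADAMs that are known mainly from testis, Adam21 (chr12:79520681-79520740) was not well above background in MEF and stood at -2.90 in ES, -0.90 in PM2i-iPSC and -0.37 in OM2i-iPSC. It was at least 15.5-fold, 61.7-fold and 89.3-fold above MEF. Adam30 (chr3:98033214-98033273) was at 1.67 in MEF and saturated in the other 3, at 4.26, 3.98 and 4.18, or at least 6.03-fold, 4.96-fold and 5.72-fold higher. The other Adam30 probe was not well above background on any array. Adam2, a subunit of the sperm protein fertilin, lay below MEF 3.96-fold in ES, 4.49-fold in PM2i-iPSC and 2.15-fold in OM2i-iPSC. Summed germ cell markers were 2.08 in MEF, 2.94 in ES, 2.85 in PM2i-iPSC and 2.69 in OM2i-iPSC, with 6 of 6 well above background on each array. Of the 6, 3 were at least 2-fold higher in ES than in MEF, Ddx4 the most at 79-fold. The 2 that were at least 2-fold lower were Dazl, 8.73-fold, and Prm1, 2.96-fold. The part of these markers was not tested. Adam11, a brain ADAM without a working zinc site (chr11:102888760-102888819), had -4.07 in MEF and -1.07, -1.39 and -2.24 in ES, PM2i-iPSC and OM2i-iPSC, or 8.04-fold, 6.44-fold and 3.56-fold higher. Another of its probes went the other way, at -2.36 in MEF against -4.25 in ES and -4.33 in PM2i-iPSC.

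Some of the members not yet described lay within 2-fold of MEF, and others departed from it. On their brightest probes, Adamts20 and Adamts7 were within 2-fold of MEF in all 3 populations, and so was Adamts10, with levels from -1.36 in MEF to -0.41 in PM2i-iPSC. Dimmer probes of each departed from this. One of Adamts7 read -3.54 in MEF and was not well above background elsewhere, one of Adamts20 read -3.67 in PM2i-iPSC alone, and one of Adamts10 was 1.83 above MEF in ES on the log2 scale. Adamts16, at -5.70 in MEF, was not well above background in ES and was 3.26-fold and 6.93-fold higher in PM2i-iPSC and OM2i-iPSC. Adamts18 and Adamts19 were read in OM2i-iPSC at -4.12 and -2.94, the former 4.08-fold above MEF; Adamts19 was not well above background in MEF. Adamts12, which cuts cartilage oligomeric matrix protein, was at least 2.25-fold lower in ES and 2.59-fold higher in PM2i-iPSC on its brightest probe, and its 3 probes did not agree in direction.

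Adam23, a neuronal ADAM without a working zinc site, lay within 2-fold of MEF in all 3 on its brightest probe, but another probe read -0.60 in MEF and 2.01, 1.55 and 3.50. Adam1b lay within 2-fold in ES and OM2i-iPSC on its brightest probe, which gave no fold in PM2i-iPSC. Its other 2 probes were not well above background in MEF, and read -4.13 and -4.10 in PM2i-iPSC. Adam1a, which pairs with Adam2 in fertilin, was 2.80-fold, 2.36-fold and 2.92-fold higher. Adam3 and Adam26a lay within 2-fold in ES and PM2i-iPSC and were 2.00-fold and 2.33-fold higher in OM2i-iPSC. The other 2 probes of Adam26a were not well above background on any array. Adam24 was at -2.56 in both MEF and ES and not well above background in either iPSC preparation, or at least 4.08-fold and 4.12-fold below MEF, respectively. Adam6 was read in OM2i-iPSC alone, at -4.02, which is at least 7.12-fold above MEF.

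**Figure D3:**
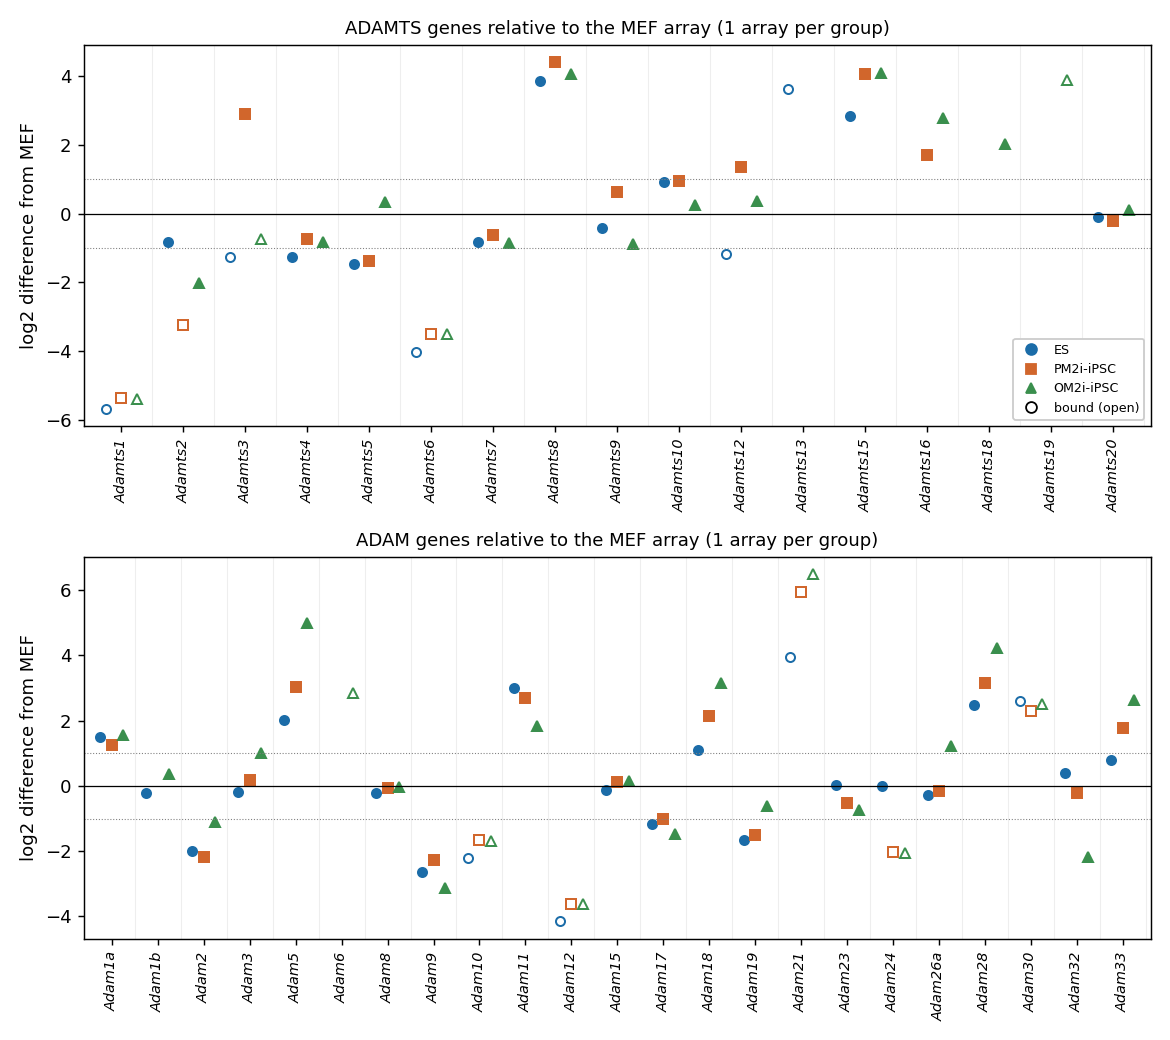
Log2 difference from the MEF array for each ADAMTS gene (top) and ADAM gene (bottom) with a fold, in ES (circles), PM2i-iPSC (squares) and OM2i-iPSC (triangles), with 1 array per group. Open symbols are bounds and dotted lines mark 2-fold. Adamts1, Adamts6 and Adam12 lie far below 0 and Adamts8, Adamts15, Adam21 and Adam28 far above it in all 3.

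Taking the 4 families together, 56 members had a fold between ES and MEF. Of these, 27 lay 2-fold or more below MEF (48.2%, against 24.2% of all genes) and 13 lay 2-fold or more above it (23.2%, against 36.4%). The median was -0.83, against 0.28 for all genes. By family the medians were -3.84 for Timp, -2.62 for Mmp, -0.83 for Adamts and -0.06 for Adam. Taken over the mean of all probes of a gene they were -3.85, -2.37, 0.87 and 0.03, so the Adamts and Adam medians changed sign. With both arrays well above background, 17 of 44 were lower and 11 higher, against 22.3% and 34.4% of all genes under that filter.

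PM2i-iPSC and OM2i-iPSC were each set against the same MEF array, so their values are given side by side. In PM2i-iPSC, 24 of 56 members lay 2-fold or more below MEF and 16 above it, against 26.2% and 37.6% of all genes. In OM2i-iPSC, 23 of 59 members lay 2-fold or more below MEF and 19 above it, against 25.5% and 39.9% of all genes. In that order, the Mmp medians were -2.09 and -2.40 and the Timp medians -3.97 and -4.18. The Adamts medians were 0.21 and 0.18 and the Adam medians -0.08 and 0.36, close to the all-gene medians of 0.28 and 0.38. With both arrays well above background, 16 of 45 were lower and 14 higher in PM2i-iPSC, against 24.1% and 36.2% of all genes. In OM2i-iPSC, 15 of 46 were then lower and 16 higher, against 24.6% and 37.4%, so lower members no longer outnumbered higher ones there.

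The scaling bears on these splits. When arrays were scaled to their median instead, the all-gene median of the ES comparison moved from 0.28 to -0.27, with 5665 genes higher and 7159 lower in place of 7425 and 4937. The corresponding all-gene medians were -0.34 for PM2i-iPSC and -0.35 for OM2i-iPSC. The members of OM2i-iPSC then split into 15 higher and 30 lower of 60, against 29.2% and 37.8% of all genes. Under quantile normalization they split into 14 higher and 26 lower of 61, against 33.5% and 26.8%. The Mmp and Timp medians against MEF stayed negative under median scaling, quantile normalization and normexp background correction. The Adamts medians of both iPSC preparations turned negative under median scaling (-0.42 and -0.55) and quantile normalization (-0.07 and -0.53), and the Adam median of OM2i-iPSC turned to -0.22 and -0.01.

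**Figure D4:**
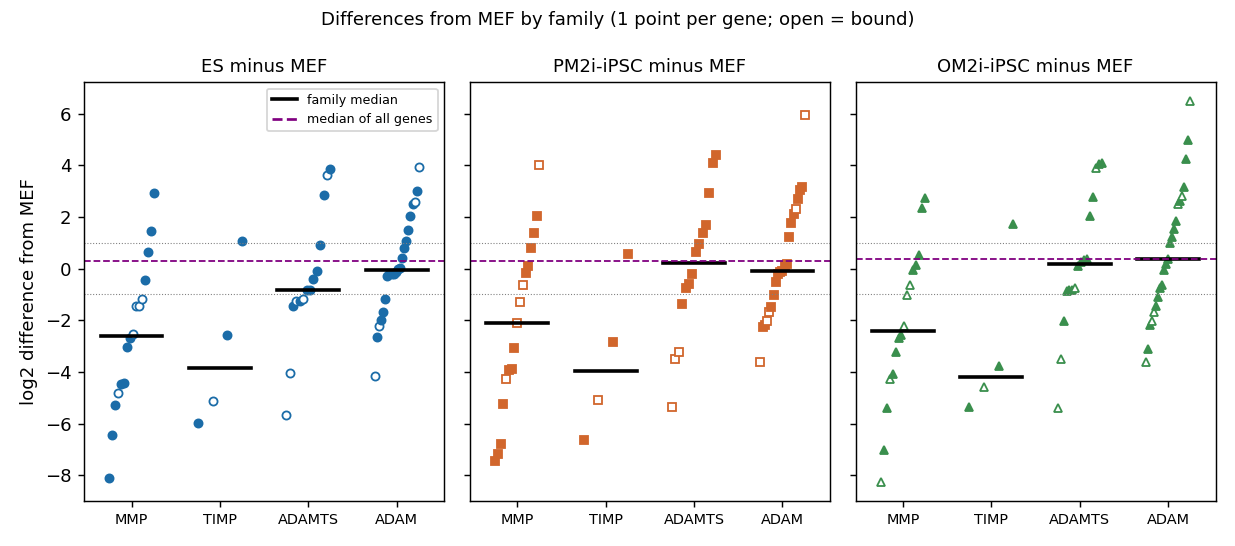
Log2 difference from MEF of each member with a fold, grouped by family, in ES (left), PM2i-iPSC (middle) and OM2i-iPSC (right); filled symbols are measured and open symbols bounds. Black bars are family medians and the dashed line is the median of all genes; MMP and TIMP medians lie between -2.09 and -4.18 in all 3 panels, and ADAMTS and ADAM medians lie nearer to the dashed line.

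The iPSC preparations stood nearer to ES than to MEF for the members that separated those 2 arrays widely. With all values raised to the highest of the 4 floors, 22 members lay at least 4-fold apart between ES and MEF (10 Mmp, 3 Timp, 4 Adamts and 5 Adam genes). Of these, 22 were nearer to ES in PM2i-iPSC and 22 in OM2i-iPSC. Over all 5227 genes so far apart the shares were 90.2% and 85.4%. The members' count is therefore read against a background that is already high.

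Against ES itself, most members of PM2i-iPSC lay within 2-fold. Of 49 with a fold, 9 lay 2-fold or more above ES and 4 below it, against 14.7% and 11.8% of all genes, with a median of 0.13. With both arrays well above background the counts were 5 higher and 1 lower of 41, against 11.7% and 9.99% of all genes. None of the 4 TIMPs differed 2-fold, and Timp3 was within 1.01-fold. The widest measured increases were in Adam21, 3.98-fold above ES, Adamts15, 2.36-fold, and Adamts9, 2.06-fold. Adamts9, a versican-cleaving enzyme, had 1.66 in MEF and 1.24 in ES, against 2.29 in PM2i-iPSC and 0.78 in OM2i-iPSC. Its 2 other probes went the other way between ES and PM2i-iPSC, at -1.37 and -0.49 in ES against -2.71 and -1.38. Mmp10 was the measured member that was lower, 2.87-fold. As bounds, Adamts3 was at least 18.1-fold higher and Adamts2 at least 5.32-fold lower in PM2i-iPSC.

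In OM2i-iPSC the members 2-fold from ES were mostly higher. Of 51 with a fold, 18 lay 2-fold or more above ES and 7 below it, against 21.3% and 14.2% of all genes, with a median of 0.45. By family 9 of 20 Adam, 6 of 14 Adamts, 3 of 13 Mmp and 0 of 4 Timp genes were higher. Timp1 was the TIMP that was lower, 2.29-fold.

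The widest measured differences were in testis ADAMs. Adam5 had -5.47 in MEF, -3.44 in ES, -2.43 in PM2i-iPSC and -0.49 in OM2i-iPSC, so that OM2i-iPSC was 7.74-fold above ES, and its other probe was at -2.87 in MEF and not well above background on the other arrays. Adam21 was 5.76-fold higher in OM2i-iPSC than in ES. Adam18 had -3.08 in MEF, -1.99 in ES, -0.94 in PM2i-iPSC and 0.07 in OM2i-iPSC, or 4.17-fold above ES. The other Adam18 probe was not well above background on any array. Adam32 went the other way, with -0.42 in MEF, -0.01 in ES, -0.63 in PM2i-iPSC and -2.59 in OM2i-iPSC, which was 5.95-fold below ES.

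Adam18, Adam3, Adam5, Adam32 and Adam9 form a run on chromosome 8 whose probes span 315 kb on mm7. Along it the differences between OM2i-iPSC and ES were 2.06, 1.19, 2.95, -2.57 and -0.46, so that the first 3 genes were higher and Adam32, next in order, was lower. The same run in PM2i-iPSC gave 1.04, 0.39, 1.01, -0.61 and 0.38. Elsewhere, Adamts5 was 3.46-fold, Mmp23 3.58-fold, Adam33 3.54-fold and Adam28 3.35-fold above ES in OM2i-iPSC. Adamts2 was 2.30-fold lower in OM2i-iPSC than in ES on its brightest probe, while another probe, at -2.81, was well above background there and not in ES.

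**Figure D5:**
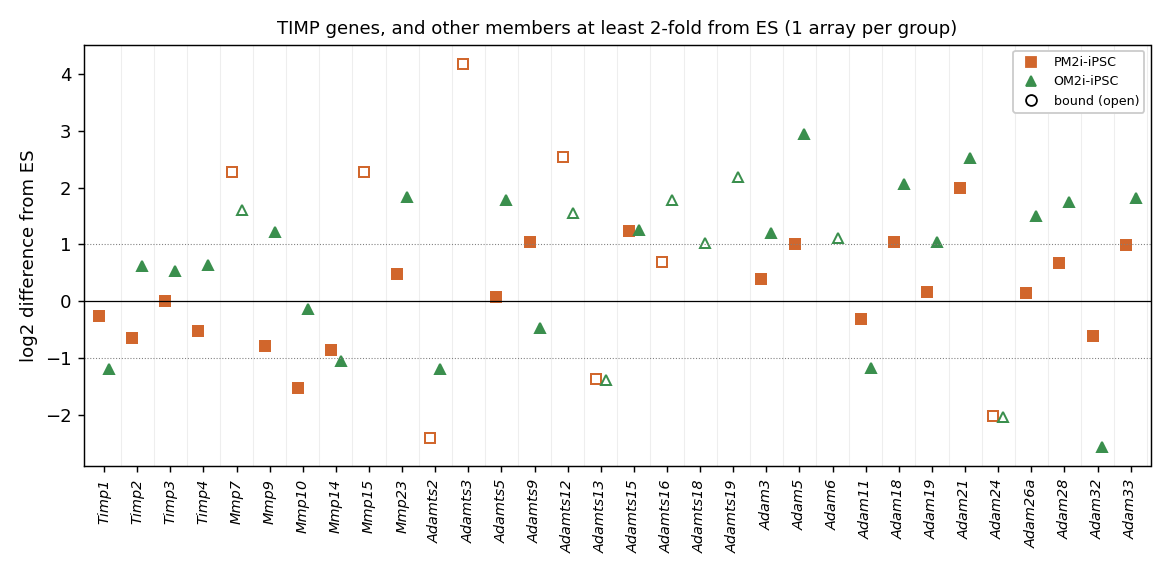
Log2 difference from the ES array for the 4 TIMP genes and for other members at least 2-fold from ES in PM2i-iPSC (squares) or OM2i-iPSC (triangles), with 1 array per group; open symbols are bounds and dotted lines mark 2-fold. Adam5 and Adam21 lie highest among measured values in OM2i-iPSC and Adam32 lowest.

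Set against each other directly, PM2i-iPSC had 4 members 2-fold or more above OM2i-iPSC and 14 below it, of 51 with a fold, against 13.0% and 17.4% of all genes. The median was -0.33, against -0.09 for all genes. Median scaling gave 6 higher and 10 lower, and quantile normalization 7 and 14. Adam32 was 3.89-fold and Adamts9 2.85-fold higher in PM2i-iPSC. Mmp9 was 4.06-fold, Adam5 3.85-fold and Adamts5 3.28-fold lower in PM2i-iPSC, and Timp2 and Timp4 were 2.41-fold and 2.25-fold lower. Adamts3, at least 12.6-fold higher in PM2i-iPSC, rests on 1 of 3 probes.

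Different probes of a gene did not always tell the same story. Between ES and MEF, 23 members had 2 or more probes with a fold; in 7 of them all such probes were at least 2-fold apart in the same direction, and in 4 (Adam11, Adam5, Adamts12 and Adamts3) probes were 2-fold apart in opposite directions. Timp1, Mmp14, Mmp9 and Adamts1 were among the genes whose probes pointed the same way. Opposed probes were found in 4 genes between PM2i-iPSC and MEF and in 7 between OM2i-iPSC and MEF.

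The wider protease network was described from fixed lists. Of 7 genes of the plasminogen system with a fold between ES and MEF, 5 lay 2-fold or more below MEF and 2 above it. Over all genes these shares were 24.2% and 36.4%. Plaur, the urokinase receptor, was 3.74-fold higher in ES. Of 9 other inhibitors and activators of metalloproteases 5 were higher and 2 lower. Pcsk6 and Pcsk5, proprotein convertases that can activate such enzymes, were 15.4-fold and 10.4-fold higher in ES, and Reck, a membrane-anchored MMP inhibitor, was 1.98-fold lower.

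In the lists of substrates and related enzymes, more genes were at least 2-fold lower than higher in ES against MEF. Over all genes 24.2% were lower and 36.4% higher. Of 10 matrix substrates with a fold 7 were lower and 1 higher; versican (Vcan) was 18.0-fold lower and brevican (Bcan) 3.46-fold higher. Of 11 shed ADAM substrates 6 were lower and 3 higher, with Egfr 60.0-fold lower and Cdh1, the epithelial cadherin, at least 387-fold higher. Of 8 ADAMTS-like genes and other matrix metalloproteases 5 were lower and 2 higher, and Bmp1, a procollagen C-proteinase, was 27.5-fold lower in ES and 8.41-fold and 4.21-fold lower in PM2i-iPSC and OM2i-iPSC. Of 9 lysosomal and secreted matrix proteases 7 were lower, and Dpp4 alone was higher, 15.1-fold.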

How the data were processed

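The authors deposited spot intensity from an Agilent scanner for 4 arrays; per the file headers, the software was Agilent Feature Extraction, version 9.5.3.1 for MEF and version 10.7.3.1 for the others. A deposited series table with the same intensity served as an alternative. Here log2 of the processed intensity minus the array's 75th percentile over non-control spots was computed, flagged outlier spots were dropped and spots of a probe averaged. A gene, named as in the MEF file, was its brightest probe by mean over the arrays. It entered a comparison when either array was well above background, and 2-fold counted as called. Of 123 member probes, 96 matched a RefSeq accession.

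The named genes were every TIMP; the 8 Mmp, 6 Adam and 6 Adamts genes widest apart between ES and MEF; up to 3 per direction in the other comparisons; and any member given within its role. The members and lists were chosen with earlier results of these data known. Genes with only a bound were left out of the rankings between pluripotent arrays. Only the step that gives folds and bounds was tested on simulated data. The simulated arrays had equal floors, unlike these arrays, and a spot SD below the mean SD here. Scaling and the choice of probe were not simulated. The 4 Affymetrix arrays were not used here. Probe positions are on mm7, the build in the MEF header (mm8 in the others). Python 3.11.15, pandas 2.3.3, numpy 2.4.6, R 4.3.3 and limma 3.58.1 (normexp with offset 50, quantile) were used.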

Additional observations from a re-analysis of the deposited data

Results flagged for a closer look

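Mmp9 and Timp2 lay on opposite sides of ES in the 2 iPSC preparations, each by more than 0.58 on the log2 scale, which is 2 SDs of a difference between spots of 1 probe and holds no spread between cultures. Mmp9 differed from ES by -0.80 in PM2i-iPSC and by 1.22 in OM2i-iPSC. Timp2 differed by -0.65 in PM2i-iPSC and by 0.62 in OM2i-iPSC. The signs were the same under median scaling, quantile normalization, normexp background correction and the mean of all probes, but not every size passed that mark. Timp2 in OM2i-iPSC was 0.45 under median scaling and 0.57 under quantile normalization. Mmp9 was -0.38 and 0.54 in PM2i-iPSC and OM2i-iPSC under normexp, and -0.56 and 0.36 with the mean of its probes. These differences were not tested, since each preparation is 1 array, and OM2i-iPSC was on another slide than the ES and PM2i-iPSC arrays.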

How the results depend on the processing

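For 178 gene differences of at least 2-fold, 1533 values were recomputed under alternatives. Of these, 1416 stayed past 2-fold in the same direction, 109 kept the direction within 2-fold and 8 reversed. Measured differences could not change with both arrays well above background (126 same), no filter and no floor (178) or a common floor (171). The deposited table, with the same intensity, had 176 the same. Of the 109, 33 arose under normexp, 24 under the mean of probes, 22 under quantile normalization and 21 under median scaling. With the mean of all probes of a gene, the reversed log2 values were -1.08 for Adam5, 0.99 for Adamts12 and 1.98 for Adamts3 (ES against MEF), 0.19 for Adamts2 (OM2i-iPSC against MEF), -0.26 for Adamts12 and -0.40 for Adamts9 (PM2i-iPSC against ES) and 1.33 for Adamts2 (OM2i-iPSC against ES). With probes of RefSeq accessions only, chosen after seeing the data, Mmp16 became 1.64 (OM2i-iPSC against MEF).

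Of 120 member counts under alternatives, 17 moved by over 1.5 times. With every probe counted, probes and not genes were the unit, so the totals rose as well. Higher in ES than in MEF were 23 of 88, against 37.0% of all probes. Lower than in MEF were 37 of 83 in PM2i-iPSC and 38 of 90 in OM2i-iPSC, against 26.1% and 25.9%. Lower than in ES were 8 of 73 and 15 of 77, respectively, against 13.1% and 16.0%. In PM2i-iPSC, 22 of 76 were lower than in OM2i-iPSC, against 17.4%. With both arrays well above background, 17 of 44 were lower in ES and 15 of 46 in OM2i-iPSC than in MEF. The all-gene shares were 22.3% and 24.6%. Relative to ES, PM2i-iPSC had 5 higher and 1 lower of 41, against 11.7% and 9.99% of all genes. In PM2i-iPSC, 2 of 43 were higher than in OM2i-iPSC, against 11.1%. With no filter and no floor 22 of 70 were higher in ES than in MEF, against 44.8% of all genes. Likewise 9 of 70 were higher in PM2i-iPSC than in OM2i-iPSC, against 12.0%. Against OM2i-iPSC, PM2i-iPSC had 7 higher under quantile normalization, 2 higher with RefSeq probes, and 9 lower both under normexp and under the mean of probes. The deposited table and a common detection floor moved no member count by over 1.5 times. Signal over background limits low members: the floor lay lowest on MEF. No paired analysis was possible because each group has 1 array.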
